A study of Arabidopsis thaliana with 8 samples.

Results

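The shoot ribosome footprint libraries were described by themselves: which coding sequences held the ribosomes of a young Arabidopsis thaliana shoot, how that pool was divided among pathways and among members of gene families, and how far 4 libraries of the same tissue agreed in these measures. The members were the 4 libraries whose labels give shoot, of 8 libraries in all, with every one of the 27416 genes of the count table. The plants were Col seedlings, 4 days after imbibition, grown in shaken liquid Murashige and Skoog medium with 1% sucrose at 22 °C in cycles of 16 h light and 8 h dark, and harvested 3 h after the lights came on. No allele, transgene or treatment separates the samples. Each library was made with another polysome extraction buffer, and all buffers held polyoxyethylene tridecyl ether, deoxycholic acid, DTT, cycloheximide (an inhibitor that holds ribosomes on the mRNA) and DNase I. The buffer of library C held 15 mM MgCl2 with 30 mM KCl, that of library B 20 mM MgCl2 with 40 mM KCl, and that of library A 25 mM MgCl2 with 50 mM KCl, each in Tris-HCl at 200 mM. Library D had the salts of library B, but its Tris-HCl was at 100 mM. Whether the libraries came from separate plants is not stated in the labels, so SDs and p-values measure only the spread between these 4 libraries, of which each is also the single library of its buffer.

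Ribosome profiling sequences the short stretch of mRNA that a translating ribosome shields from nuclease. The number of footprints on a coding sequence reflects how much of its mRNA is present and how densely ribosomes load it, and a longer coding sequence holds more of them for the same output of protein. Coding lengths were not available here, so all values are shares of the footprints and none is a rate of protein synthesis per gene. In a green seedling the chloroplast draws on 2 genomes: most of its proteins are made on cytosolic ribosomes from nuclear genes and imported, and a small set is made inside the organelle from its own DNA. A seedling of this age is also still leaving the stage in which it lives on oil and protein stored in the seed.

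Totals were 3778810 counts in library C, 3746348 in D, 4253637 in B and 4501213 in A, so that 1 count was worth 0.265, 0.267, 0.235 and 0.222 CPM (counts divided by the library total, times 1000000). The number of genes with a count was 18559 to 19348 per library, of which 16668 had a count in all 4, and 6382 were at 0 in all 4, where a library's count of 0 allows a level of up to 0.666 to 0.801 CPM (3 counts). Across the 17105 genes with a mean of at least 1 CPM, Spearman correlations of levels between libraries were 0.938 to 0.952, as a description across genes of libraries that share a tissue. The 10 shoot markers all had counts in every library and summed to 25495 CPM in C, 26448 in D, 28081 in B and 24853 in A. Of 16 root markers, 12 had counts in all 4 libraries and IRT1 was at 0 in all 4, and their sum was 113 CPM in C, 167 in D, 160 in B and 69.5 in A, with PRP3, a root hair wall protein, at 43.1 to 95.3 CPM holding the most. Of 7 genes of seed reserves, 4 had counts in all libraries, and their sum was 3686 CPM in C, 3770 in D, 3608 in B and 2606 in A. The sums of root and seed genes were thus lowest in library A. Of the root markers, CASP1, CASP5, MYB36, EXPA18 and PLT1 were not lowest there, each at or below 5.34 CPM in every library.

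The shoot pool was led by genes of carbon fixation and light harvesting. The plastid-encoded locus ATCG00490 ranked first, at 17120 CPM in C, 17299 in D, 19656 in B and 22748 in A, and held 1.92 ± 0.263% of all counts (mean ± SD, n = 4, as in all such values below). RBCS1A (AT1G67090), a small subunit of the carbon-fixing enzyme Rubisco, followed with 14084, 14281, 16154 and 13884 CPM in C, D, B and A, and CAB1 (AT1G29930), an antenna protein of photosystem II, with 9420, 10061, 9719 and 8966 CPM. The ranges of these 3 loci over the libraries did not overlap. PYK10 (AT3G09260), a beta-glucosidase stored in ER bodies, came next at 7700 CPM with 7300 to 8277 CPM over the libraries, and ATMS1 (AT5G17920), a methionine synthase, followed at 6507 CPM. The other 15 of the 20 highest genes were 3 further Rubisco small subunits (RBCS3B, RBCS2B and RBCS1B), RCA (Rubisco activase), the antenna genes CAB2, LHB1B2, CAB3 and LHCB3, LOS1 (elongation factor 2), GUN5 (a magnesium chelatase subunit of chlorophyll synthesis), FBA2 (a plastid aldolase), GAPC2 (cytosolic glyceraldehyde phosphate dehydrogenase), HSC70-1 (a cytosolic HSP70 chaperone), and the unnamed AT5G60390 and AT3G60750, listed here among cytosolic translation factors and Calvin cycle enzymes.

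This order was much the same in every library. Of the 10 highest genes of each library, 8 were shared by all 4, as were 16 of the 20 highest and 89 of the 100 highest. In a library, the top 10 genes held 8.31 ± 0.228% of its counts, the 100 highest 27.4 ± 0.535% and the 1000 highest 62.1 ± 0.363%. It took 500 genes in C, 495 in D, 471 in B and 490 in A to reach 50% of the counts. At the other end, 9707 genes averaged at least 10 CPM, 1678 at least 100 CPM and 126 at least 1000 CPM.

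Gene lists of 35 pathways or families, 622 nuclear genes in all, were used to divide the pool, and together they held 37.4% of counts in C, 37.4% in D, 38.0% in B and 36.5% in A. The intervals that counting alone gives such shares (95% Wilson) were at most 0.0490 percentage points to either side, and they cover counting error only. Light-harvesting antenna proteins took the largest share of the 35 lists at 5.22 ± 0.191%, ahead of cytosolic ribosomal proteins at 4.07 ± 0.0539% and of Rubisco small subunits with activase at 3.48 ± 0.215%. The ranges of these 3 over the libraries did not overlap. Along the whole order of lists, the ranges of 15 of the 34 neighbouring pairs overlapped, so that many places in the middle of the order are not separated by these 4 libraries.

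**Figure D1:**
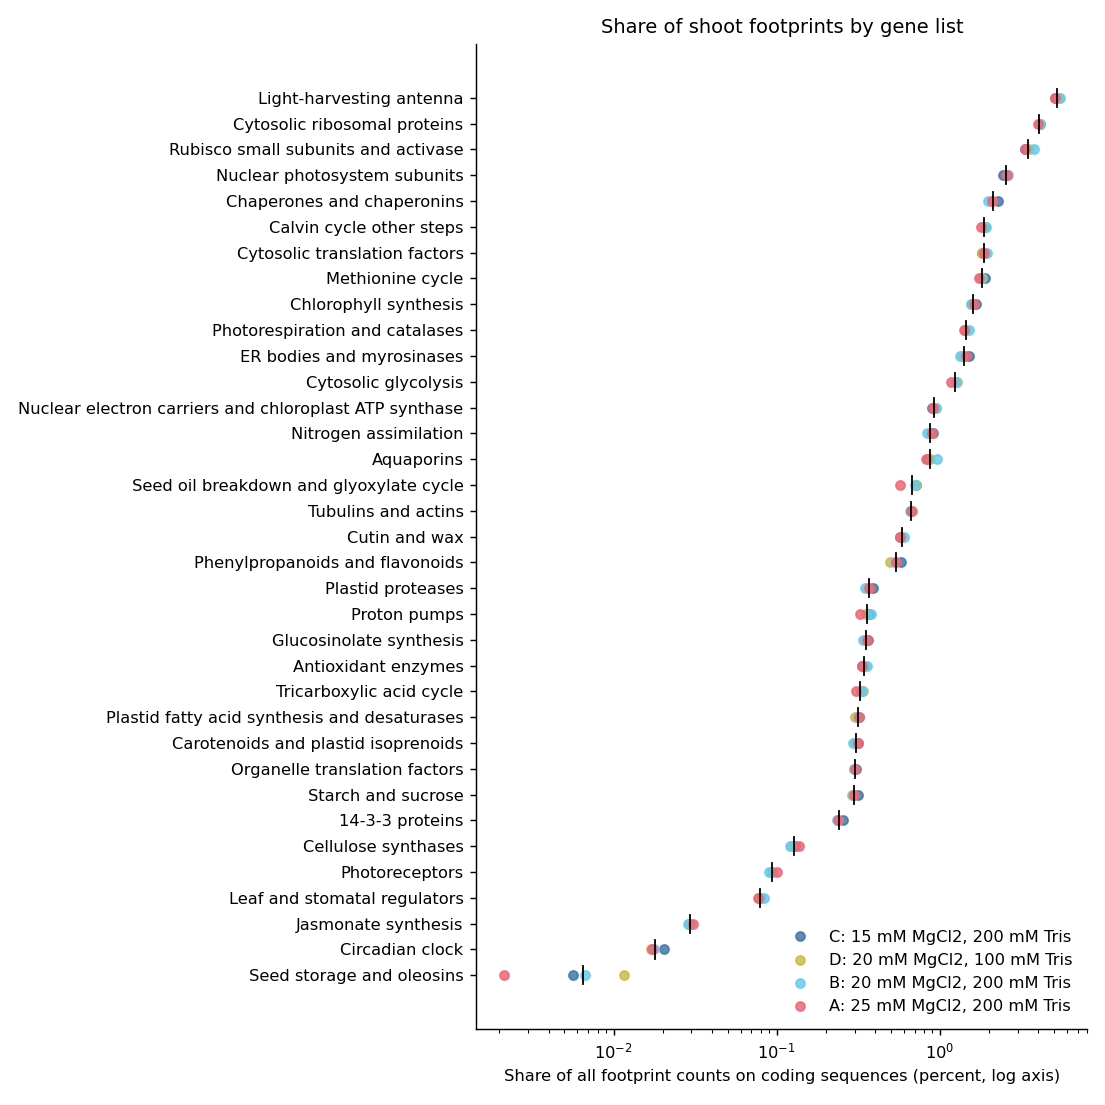
Share of all footprint counts on coding sequences (percent, log axis) held by each of 35 nuclear gene lists in the 4 shoot libraries. Points are libraries, coloured by buffer, and the short vertical line is their mean. The lists run from antenna proteins at 5.22% to seed storage at 0.00653%, and the libraries of a list lie close together except for seed storage and, in library A, seed oil breakdown.

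Nuclear genes of photosynthesis, 77 genes in 5 lists, held 13.6% of all counts in C, 14.2% in D, 14.7% in B and 13.6% in A. Of the 20 antenna genes, which bind the chlorophyll that collects light, all had counts in every library, and the share of the list was 5.05% in C, 5.35% in D, 5.42% in B and 5.07% in A. Behind CAB1 stood CAB2 with a mean of 4896 CPM, LHB1B2 with 4514 and CAB3 with 4489, all LHCB1 proteins of the major trimeric antenna of photosystem II, then LHCB3 with 3591, LHCB5 with 2842 and LHCB4.1 with 2733 CPM. At the bottom of the same list were Lhca5 at 56.5 and Lhca6 at 52.0 CPM, antenna proteins found with photosystem I in small amounts.

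The Rubisco list was high in library B in every one of its 5 genes: its share was 3.33% in C, 3.50% in D, 3.77% in B and 3.31% in A, and RCA, which frees Rubisco of bound sugar phosphates, ran at 6019, 6345, 6440 and 5932 CPM. Nuclear photosystem subunits held 2.54 ± 0.0780%. They were led by PSBP-1 at 3002 CPM in C, 2944 in D, 3221 in B and 3390 in A and by PSBO1 at 2887 to 3041 CPM, both of the oxygen-evolving complex of photosystem II, followed by NPQ4 (PsbS, the sensor of heat dissipation) at 1847 CPM and PSAF of photosystem I at 1635 CPM. Plastocyanin DRT112, the copper protein that carries electrons to photosystem I, had 2168 CPM in C, 2469 in D, 2330 in B and 2335 in A, and the list of electron carriers and ATP synthase held 0.923 ± 0.0241%.

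The other steps of the Calvin cycle held 1.87 ± 0.0628% over 18 genes, with FBA2 at 3796 CPM in C, 3967 in D, 3897 in B and 3345 in A, and AT3G60750 at 3226 to 3525 CPM. The glyceraldehyde phosphate dehydrogenase genes GAPA and GAPB averaged 1848 and 1209 CPM. Photorespiration, which recovers carbon after Rubisco has fixed oxygen, held 1.44 ± 0.0507%, with the peroxisomal catalase CAT2 at 2455, 2345, 2624 and 2213 CPM in C, D, B and A and GLDP1, a subunit of glycine decarboxylase, at 1395 to 1723 CPM. In both lists the share of the highest library was 1.08 times that of the lowest.

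Chlorophyll synthesis held 1.60 ± 0.0492% and most of it lay in a few enzymes. GUN5 alone made up 26.6% of the list's counts, at 4381 CPM in C, 4231 in D, 4232 in B and 4218 in A, and 3 of the 24 genes, GUN5, AT1G74470 and CRD1 (the cyclase that closes the fifth ring), made up 58.6%. HEMA1, glutamyl-tRNA reductase at the entry to the pathway, averaged 722 CPM and its relative HEMA2 32.7 CPM. Carotenoid and plastid isoprenoid genes held 0.306 ± 0.0113%, led by CLA1, the first enzyme of the plastid isoprenoid route, at 614 CPM and PSY, phytoene synthase, at 443 CPM.

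The machinery of protein synthesis and folding was the next large block. The 107 cytosolic ribosomal protein genes held 4.08% of counts in C, 4.09% in D, 4.12% in B and 3.99% in A, and none of them dominated: RP1, a large subunit protein, had the most at 1520 CPM, which was 3.73% of the list. Cytosolic translation factors held 1.86 ± 0.0562%, with LOS1 at 4342, 4329, 4495 and 4377 CPM in C, D, B and A, and RABE1b, the plastid elongation factor Tu, had 1865 CPM. Chaperones and chaperonins held 2.27% in C, 2.09% in D, 1.98% in B and 2.08% in A. HSC70-1 (3820, 3417, 3305 and 3216 CPM in the same order) and the cytosolic HSP90 gene HSP81-2 (1799, 1463, 1422 and 1419 CPM) were highest in C. The plastid chaperonins CPN60A and CPN60B, which fold proteins inside the plastid, the large subunit of Rubisco among them, averaged 2226 and 1685 CPM. The heat-inducible Hsp70b was at 0 in C and B and at most 1.87 CPM elsewhere, and the stress-inducible ER chaperone BIP3 reached at most 3.53 CPM.

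Methyl group supply and defence chemistry each drew shares above that of cytosolic glycolysis in every library. The methionine cycle, which supplies methyl groups, held 1.81 ± 0.0653% in 11 genes, and ATMS1 (6939 CPM in C, 6593 in D, 6252 in B and 6245 in A), HOG1 (S-adenosylhomocysteine hydrolase, 3296 CPM) and MTO3 (S-adenosylmethionine synthetase, 3034 CPM) made up 71.0% of it. ER bodies and myrosinases, enzymes that release toxic products from glucosides upon damage, held 1.41 ± 0.0833%. PYK10, its partner lectin PBP1 (3084 CPM) and NAI2 (1689 CPM), a protein needed to form ER bodies, made up 88.5% of that list, while the leaf myrosinase TGG1 averaged 661 CPM. NAI2 was at 1894 CPM in C, 1642 in D, 1406 in B and 1812 in A, and the share of the whole list followed the same order, highest in C and lowest in B. Synthesis of glucosinolates, the substrates of myrosinases, held 0.353 ± 0.0106%. Phenylpropanoid and flavonoid genes held 0.535 ± 0.0316%, 38.4% of it on TT4, chalcone synthase, at 2156 CPM in C, 1929 in D, 2246 in B and 1873 in A.

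Genes that break down seed reserves held fewer footprints in library A than in the others. Oil breakdown and the glyoxylate cycle, by which seedlings turn stored oil into sugar, held 0.716% of counts in C, 0.711% in D, 0.703% in B and 0.568% in A. ICL, isocitrate lyase, made up 41.4% of the list and was at 3085, 3069, 2877 and 2126 CPM in the same order, and MLS, malate synthase, at 553, 596, 668 and 463 CPM. Both were lowest in A, as was PCK1, which starts the conversion to sugar, at 661, 576, 618 and 517 CPM. Seed storage proteins and oleosins held 0.00653 ± 0.00393%. CRA1, a storage globulin (cruciferin), had 95 counts in C, 260 in D, 184 in B and 63 in A, and 9 of the 13 genes did not have a count in every library.

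In central carbon metabolism cytosolic glycolysis held 1.26% in C, 1.28% in D, 1.26% in B and 1.16% in A. Its leaders were GAPC2 (3716 CPM) and GAPC1 (2765 CPM), both glyceraldehyde phosphate dehydrogenases, and LOS2 (enolase, 1827 CPM in C, 1780 in D, 1822 in B and 1532 in A). The tricarboxylic acid cycle held 0.325 ± 0.0145%, led by the aconitase ACO3 at 947 CPM, and starch and sucrose 0.298 ± 0.0114%, led by ADG1, the small subunit of ADP-glucose pyrophosphorylase, at 733 CPM. Nitrogen assimilation held 0.876 ± 0.0329%, with GS2, the plastid glutamine synthetase, at 2384, 2287, 2336 and 2433 CPM in C, D, B and A. GLU1, the ferredoxin-dependent glutamate synthase of leaves, averaged 1424 CPM. The asparagine synthetase gene ASN1, known to be repressed by light and sugar, had 1 count in D and 0 in the other libraries.

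Among transport and cell surface genes, aquaporins held 0.842% in C, 0.869% in D, 0.955% in B and 0.817% in A. The tonoplast gene TIP2 led at 2271, 2343, 2723 and 2192 CPM, followed by PIP2A of the plasma membrane at 1335 CPM. Proton pumps held 0.355 ± 0.0224%, with AVP1, the vacuolar pyrophosphatase, at 1513 CPM and the plasma membrane pump HA2 at 1022 CPM. Cutin and wax genes, which make the epidermal cuticle, held 0.582 ± 0.0173%, and the lipid transfer proteins LP1 and LTP2 led them at 1012 and 994 CPM. The primary wall cellulose synthases CESA1 and CEV1 averaged 382 and 349 CPM, whereas the secondary wall genes CESA4, IRX3 and IRX1 averaged 19.4, 16.6 and 14.2 CPM.

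Smaller lists covered plastid upkeep, defence against oxidants and the cytoskeleton. Plastid proteases, which turn over and unfold chloroplast proteins, held 0.366 ± 0.0170%, with the Clp chaperone CLPC1 at 1498 CPM in C, 1349 in D, 1285 in B and 1476 in A and the FtsH protease VAR2 at 794 to 846 CPM. Antioxidant enzymes held 0.343 ± 0.0119%, with APX1, the cytosolic ascorbate peroxidase, at 1000, 1113, 1210 and 946 CPM in C, D, B and A. Plastid fatty acid synthesis with desaturases held 0.314 ± 0.00902%, and its highest gene, the plastid desaturase FAD6, had 350 CPM. Tubulins and actins held 0.668 ± 0.0109%, with the vegetative actin ACT7 at 836 CPM first. The 14-3-3 proteins, which bind phosphorylated partners, held 0.241 ± 0.00927%, and the 4 jasmonate synthesis genes 0.0295 ± 0.000820%.

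Regulators drew small shares. The 10 photoreceptor genes held 0.0942 ± 0.00454%, led by the blue light receptor PHOT1 (298 CPM) and phytochrome PHYA (222 CPM). The 21 leaf and stomatal regulators held 0.0793 ± 0.00327%, with PDF1, an epidermal protein, at 232 CPM and its homeodomain regulator ATML1 at 97.6 to 107 CPM. The 12 clock genes held 0.0180 ± 0.00153%. The morning genes LHY (86.0 CPM in C, 61.1 in D, 58.8 in B and 55.8 in A) and CCA1 (23.0 to 33.9 CPM) led the clock list at this harvest 3 h after lights on. GI, of evening phase, came next at 24.5 ± 4.03 CPM and overlapped CCA1, and PRR9, of morning phase, averaged 3.51 ± 1.98 CPM, with TOC1, of evening phase, at 3.65 ± 2.63 CPM. PRR5, of later phase than PRR9, had counts in C alone, at 0.529 CPM.

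Family members were compared within 62 families, 209 genes in all, as the share of the family's counts on each member. Members of a family have similar but not equal coding lengths, and reads from near-identical copies may have been counted at either, so that shares among LHCB1, Rubisco small subunit, elongation factor 1-alpha, tubulin, BiP and similar genes are uncertain. A single member held more than 90% of the counts in 13 families, 50 to 90% in 37 and less than 50% in 12. The leader's share had a median of 64.7% over the families and a median SD over the libraries of 0.859 percentage points, and the leader overlapped the second member in range only in the superoxide dismutases and the 14-3-3 proteins.

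Families close to a single gene came from photosynthesis, translation, chlorophyll synthesis, nitrogen assimilation and defence chemistry. AT3G60750 held 98.4 ± 0.206% of plastid transketolase. PSBP-1 had 51331 counts over the 4 libraries, against 5 counts on PSBP-2. LOS1 held 98.9 ± 0.168% of elongation factor 2, DRT112 93.7 ± 0.654% of plastocyanin, HEMA1 95.6 ± 1.09% of glutamyl-tRNA reductase, and SHM1 92.6 ± 0.538% of the mitochondrial serine hydroxymethyltransferases of photorespiration. GLU1 held 91.9 ± 0.118% of ferredoxin-dependent glutamate synthase and TGG1 91.3 ± 0.736% of myrosinase. In these families the spread between libraries was far below the distance to the second member.

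Rubisco small subunit footprints were divided among 4 genes in nearly fixed proportion. RBCS1A held 51.6% in C, 49.9% in D, 51.6% in B and 51.1% in A, followed by RBCS3B at 18.6 ± 0.407%, RBCS2B at 15.7 ± 0.303% and RBCS1B at 14.7 ± 0.406%. In LHCB1, CAB1 held 37.6%, 37.7%, 37.0% and 37.1% in C, D, B and A, and CAB2, LHB1B2 and CAB3 averaged between 17.6 and 19.2%. The range of LHB1B2, 16.2 to 19.3%, overlapped those of both others, while CAB2 at 18.1 to 20.5% stayed above CAB3 at 17.2 to 18.0%. LHCB2.2 and LHCB2.1 were close, at 45.4 ± 0.584% and 42.4 ± 1.18% of LHCB2, and their ranges were apart by little, 44.8 to 46.1% against 41.3 to 43.8%. The summed level of the 4 Rubisco small subunits was 28599 ± 1922 CPM.

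Other families split more evenly or less steadily. CAT2 and CAT3 held 61.5 ± 2.27% and 37.2 ± 2.03% of catalase, and CAT1 1.27%. PORB held 70.9% of protochlorophyllide oxidoreductase in C, 67.7% in D, 63.1% in B and 69.3% in A, POR C most of the rest, and PORA, the form known from dark-grown seedlings, 1.63 ± 0.225%. GS2 held 78.0 ± 0.775% of glutamine synthetase, ahead of the cytosolic GSR2 at 12.0%. Nitrate reductase was divided between NIA2 at 56.9 ± 2.01% and NIA1 at 43.1%, and actin between ACT7 at 41.0 ± 1.27% and ACT2 at 36.1 ± 0.772%. Phytochrome footprints lay for 64.3 ± 3.00% on PHYA, the light-labile form, and for 17.1 ± 0.673% on PHYB.

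Enzyme, transporter and chaperone families mostly had a clear first member. ATMS1 held 82.5 ± 1.14% of methionine synthase and MTO3 59.6 ± 0.754% of S-adenosylmethionine synthetase. FBA2 held 66.2 ± 1.59% of plastid aldolase, GOX1 58.3 ± 0.774% of glycolate oxidase, and GAPC2 57.3 ± 0.806% of cytosolic glyceraldehyde phosphate dehydrogenase. Among aquaporins TIP2 held 59.7 ± 0.500% of the tonoplast family and PIP2A 52.5 ± 0.940% of the PIP2 family. Of the plasma membrane proton pumps HA2 held 50.1 ± 2.09% and HA1 43.1 ± 2.26%, with ranges that did not overlap. HSP81-2 and HSP81-3 held 47.8 ± 1.51% and 39.3 ± 1.69% of cytosolic HSP90. Beta-tubulin was divided among 9 genes, with TUB3 at 22.0 ± 0.306%, TUB4 at 19.7 ± 0.365% and TUB2 at 17.6 ± 0.334%.

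The least stable leader share was that of photosystem I subunit PsaH, where PSAH2 held 70.2% in C, 61.8% in D, 60.4% in B and 66.9% in A (SD 4.54). Among the 5 copper/zinc and iron superoxide dismutases, the plastid copper enzyme CSD2 and the cytosolic copper enzyme CSD1 held 38.2 ± 2.84% and 35.2 ± 1.24% with overlapping ranges. The iron enzyme FSD1, known to be regulated by copper supply, held 9.63% in C, 16.0% in D, 20.9% in B and 10.1% in A, and its level was 85.2, 145, 197 and 87.3 CPM. FSD1 was thus at over 2 times its level in C or A in library B, while CSD2 kept between 321 and 354 CPM. In the 14-3-3 family GRF3 (20.2 ± 1.70%) and GRF1 (19.6 ± 1.87%) changed places between libraries.

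**Figure D2:**
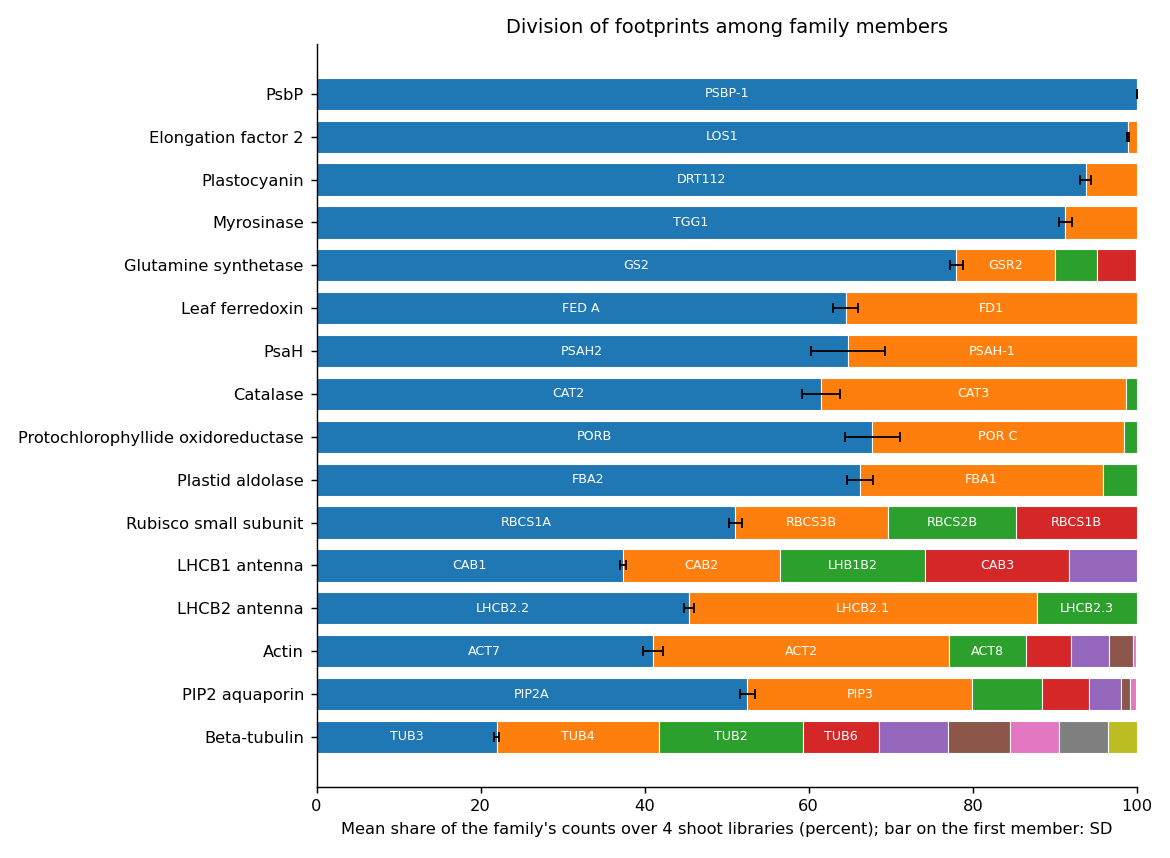
Mean share of each member in the counts of 16 gene families over the 4 shoot libraries (percent), with the highest member first and its SD as the black bar. PsbP, elongation factor 2, plastocyanin and myrosinase lie almost wholly on 1 gene, whereas beta-tubulin, actin and LHCB1 are divided among many.

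By genome of origin, nuclear loci held 95.9% of counts in C, 95.4% in D, 95.1% in B and 94.1% in A. The 88 plastid-encoded loci held 3.78%, 3.94%, 4.49% and 5.43% in the same order. ATCG00490 made up 43.6% of the plastid counts, followed by ATCG00350 at 3058 CPM, ATCG00680 at 2952 and ATCG00020 at 2568 CPM, and 7 plastid loci were among the 100 highest genes. The 122 mitochondria-encoded loci held 0.355% in C, 0.636% in D, 0.427% in B and 0.516% in A, with ATMG00280 first at 930 CPM. These organelle loci are not named in the annotation used and are given by identifier.

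The plastid share was thus lowest in the library with the least salt and highest in the library with the most. A straight line over the 4 libraries had a slope of 1.65 percentage points per 10 mM MgCl2. Libraries B and D share the middle MgCl2 level, so this slope is the difference between A and C, each a single library. Salt cannot be told apart here from anything else particular to A or C. An exact permutation test over the 4 libraries gave a two-sided p of 0.167, the smallest that this design allows. The mitochondrial share gave 0.160 points per 10 mM with p = 0.5, and nuclear photosynthesis genes 0.0434 points with p = 1 by the same exact test. At 100 CPM or more, 32 of 34 plastid loci were highest in A, and 8 of 10 mitochondrial loci were highest in D and 9 of 10 lowest in C. Of the 1634 nuclear genes at this level, 339 were highest in A, 370 highest in D and 301 lowest in C. The sums of root and seed genes were lowest in the same library A, and their part in these shares was not tested.

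**Figure D3:**
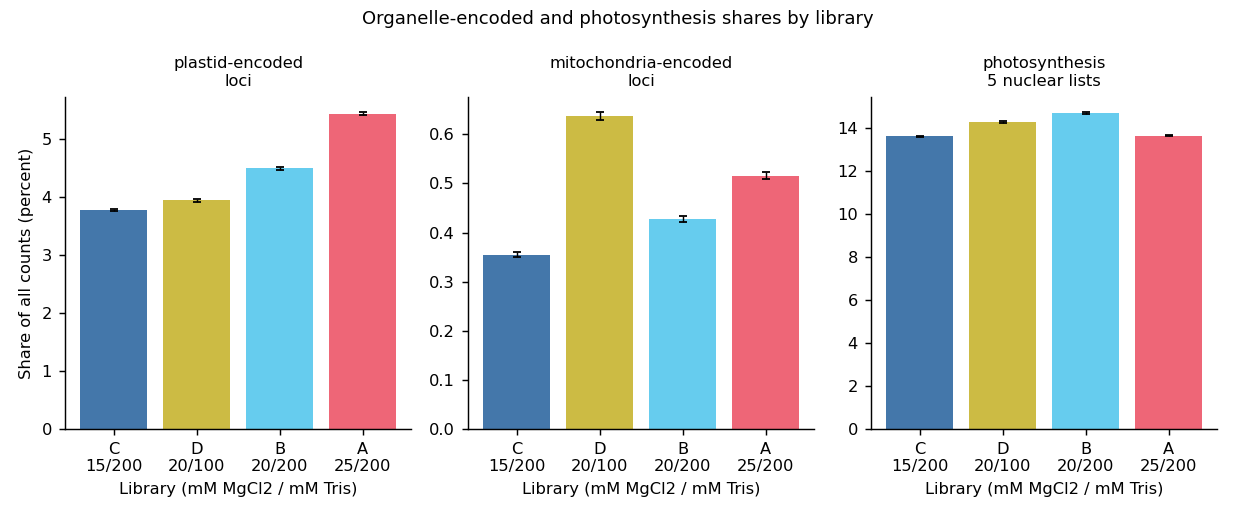
Share of all counts (percent) on plastid-encoded loci, mitochondria-encoded loci and 77 nuclear photosynthesis genes in each shoot library, with MgCl2 and Tris in mM under each bar. Error bars are 95% Wilson intervals, which cover counting error only. The plastid share is highest in A at 5.43%, the mitochondrial share highest in D at 0.636%, and nuclear photosynthesis genes stay between 13.6 and 14.7%.

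The spread between libraries depended on level and on genome. Among nuclear genes the median coefficient of variation (CV, SD over mean) was 5.74% for the 117 genes at 1000 CPM or more, 8.05% for the 1517 genes from 100 to 1000 CPM, 17.9% from 10 to 100 CPM and 44.8% from 1 to 10 CPM. Counting alone would give 1.24%, 3.60%, 10.0% and 24.8% in these ranges. The median CV was 17.2% for the 9 plastid loci at 1000 CPM or more, and 39.3% for the 10 mitochondrial loci from 100 to 1000 CPM. Of the 20 loci with the largest CV among the 1678 at 100 CPM or more, 8 were mitochondrial, 2 plastid and 10 nuclear. The nuclear loci included AT2G07698, AT2G07671 and AT2G07727, in a chromosome 2 region known to carry mitochondrial DNA. Their reads may also match mitochondrial loci, as described below.

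The most variable of the nuclear genes fell in a few patterns. AT2G01021 had the largest CV, 76.1%, with 316 CPM in C, 71.0 in D, 101 in B and 105 in A, and so was high in C alone. AT2G07698, AT2G07671 and AT2G07727, with CVs of 45.4%, 45.2% and 43.6%, were highest in D, as were 8 of the 10 mitochondrial loci at 100 CPM or more. AT3G28550 (74.1, 127, 200 and 66.6 CPM in C, D, B and A) and EXT10, an extensin of the cell wall (89.4, 102, 172 and 48.9 CPM), were highest in B and lowest in A. AT3G54580, the hydroxyproline-rich glycoprotein gene HRGP1 and the extensin gene EXT4, named here after their values were seen, had the same order of libraries, with EXT4 at 161, 194, 243 and 116 CPM. The sum of the root markers, of which PRP3 held the most, was also low in A and high in B and D. CASP1, CASP5 and MYB36 were instead lower in B than in A. The part of root markers in this pattern was not tested. Extensins share repeated sequence, so that their reads can be counted at more than 1 gene.

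The steadiest genes lay at or below the spread that counting alone gives. AT3G11510, in the list of cytosolic ribosomal proteins, had 459 CPM in C, 460 in D, 465 in B and 462 in A, a CV of 0.549% where counting gives 2.31%. PFL and emb2386, both ribosomal proteins, had CVs of 0.788% and 1.06%, AT5G02870 of the same list 1.08%, and ABCG12, a wax exporter of the epidermis, 1.04%. Of the 10 smallest CVs at 100 CPM or more, 5 belonged to the list of cytosolic ribosomal proteins, which supplied 88 of the 1678 loci at this level. The median CV of those 88 was 6.81%, against 7.89% for all nuclear genes at this level.

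**Figure D4:**
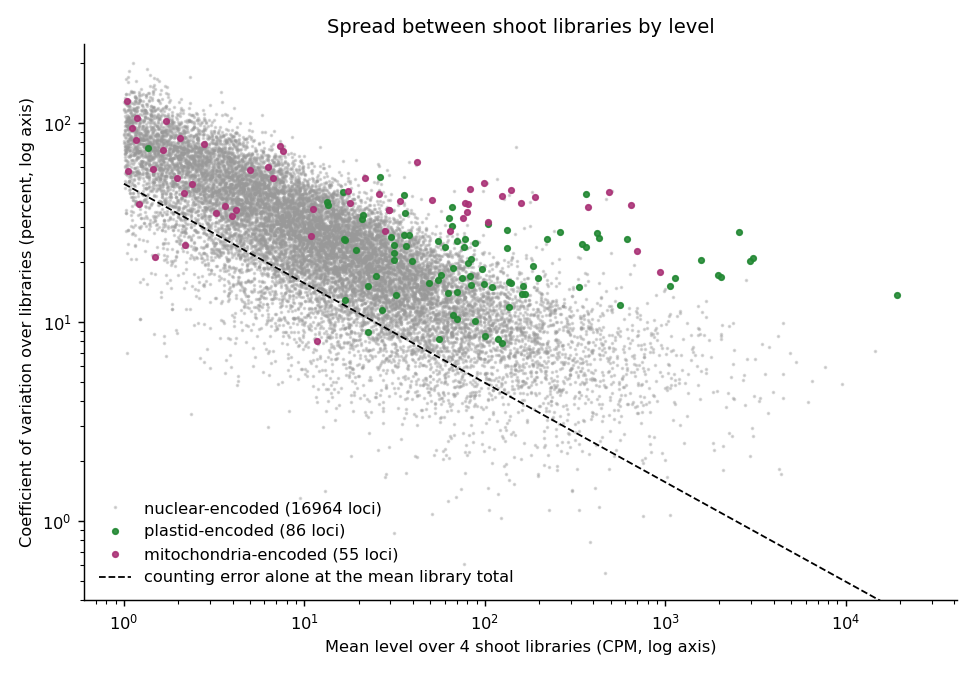
Coefficient of variation over the 4 shoot libraries (percent, log axis) against mean level (CPM, log axis) for every locus with a mean of at least 1 CPM, coloured by genome. The dashed line is the variation that counting alone gives at the mean library total. Nuclear genes fall with the line and flatten above it at high levels, and plastid and mitochondrial loci mostly lie above the nuclear genes of the same level, with medians of 17.2% for plastid loci at 1000 CPM or more and 39.3% for mitochondrial loci from 100 to 1000 CPM.

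Whether single genes followed the salt of the buffer was tested with numeric MgCl2 and low Tris as terms in edgeR, over the 12855 genes with sufficient counts. KCl was in fixed proportion to MgCl2, so the effects of the salts cannot be told apart. Libraries B and D had equal MgCl2, so a slope rests mainly on A against C. A salt effect cannot be told apart from anything else particular to those libraries. With 3 coefficients, 4 libraries left 1 residual degree of freedom, so that the p-values rest on a spread shared across genes. At 0.05 after Benjamini-Hochberg adjustment the quasi-likelihood test of edgeR called 11 genes, 0.0856% of those tested. Of these, 10 rose with salt (0.0778%) and 1 fell (0.00778%). These were 6 of 85 plastid and 4 of 35 mitochondrial loci tested, and the only nuclear gene was AT2G01021, which fell by 1.61 on the log2 scale per 10 mM MgCl2 (SE 0.22, adjusted p = 7.13e-10). That gene was at 316 CPM in C and between 71.0 and 105 CPM in the other libraries, and without library C, in a fit on MgCl2 alone, its slope was 0.52. DESeq2 called 1 gene, ATCG00140.

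ATCG00140 had the steepest rise of the 11, at 164 CPM in C, 341 in D, 399 in B and 554 in A, a log2 slope of 1.75 ± 0.21 (SE) per 10 mM with an adjusted p of 4.37e-12 by edgeR. ATCG00580 ran at 268, 396, 474 and 542 CPM in C, D, B and A (slope 1.01 ± 0.21) and ATCG00020 at 1886, 2036, 2960 and 3391 CPM (0.85 ± 0.19). ATCG01060, ATCG00570 and ATCG00710 passed too, with slopes of 0.86 to 1.02. The mitochondrial loci that passed, ATMG00160, ATMG00060, ATMG01360 and ATMG00070, were lowest in C and highest in D, the library with low Tris, with A next. Without library C, on MgCl2 alone, the slopes of the last 3 were -0.0089, -0.17 and -0.12. Beyond the calls, slopes were above 0 in 81 of 85 plastid loci (median log2 slope 0.49), in 31 of 35 mitochondrial loci (0.70) and in 6222 of 12735 nuclear genes (-0.01), which compares with a median of -0.01 over all genes tested. Loci of 1 organelle share the depth and RNA of their library and are not independent.

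These calls were few and depended on the libraries and on the method. DESeq2 called 1 gene, which was a plastid locus, and without library C 36 genes were called in a fit on MgCl2 alone, of which 2 were among the 11, and the slopes of ATMG00060, ATMG01360, ATMG00070 and AT2G01021 changed sign. The same fit called 34 genes without library A and 31 without library B, with 8 and 11 of the 11 among them. At an unadjusted p under 0.05, 537 genes of 12855 passed in edgeR.

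None of the 586 tested genes of the 35 lists passed the salt test in edgeR or in DESeq2, including the 76 tested nuclear photosynthesis genes, of which 2 had an unadjusted p under 0.05 and 43 a slope above 0, with a median log2 slope of 0.02. The median standard error of a slope was 0.53 over all genes, and the smallest slope among the 11 calls was 0.85 (ATCG00020). A gene that did not pass is thus not shown to be free of a trend.

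Library D was the single library with 100 mM Tris, so the Tris term of this fit sets 1 library against the other 3 at equal salt, and low Tris cannot be told apart from anything else particular to D. The p-values assume that D varies like the other libraries, and compare this library, not the Tris concentrations. With that limit, 20 genes stood apart in D, 0.156% of the 12855 tested, of which 19 were higher in D (0.148%) and 1, AT2G01021, was lower (0.00778%), by edgeR at an adjusted p of 0.05. The 19 were mitochondrial loci and 6 nuclear genes, with no plastid locus among them. The log2 difference was above 0 in 32 of 35 mitochondrial and 13 of 85 plastid loci, against 6386 of the 12855 genes tested. A plastid locus that did not pass is thus not shown to be equal in D and the other libraries. ATMG01190 had 806 CPM in D, against 341 in B, 333 in C and 477 in A (log2 difference 1.09 ± 0.15 SE), and ATMG01360 had 974 CPM in D, against 522 in B, 392 in C and 712 in A (0.89 ± 0.15). Over all loci tested, the median log2 difference was 0.90 for mitochondrial, -0.20 for plastid and -0.0016 for nuclear loci.

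Of the 6 nuclear genes higher in D, 5 bear neighbouring identifiers on chromosome 2, AT2G07671, AT2G07687, AT2G07698, AT2G07707 and AT2G07727, a region known to carry a large insertion of mitochondrial DNA. AT2G07698 had 3143 counts in D, 1496 in B, 1345 in C and 2148 in A, and the mitochondrial ATMG01190 had 3018, 1450, 1257 and 2145 in the same order. AT2G07671 and ATMG01080 likewise differed by at most 5.97% in any library. The sources used here do not say how reads that match both genomes were counted, and these nuclear and mitochondrial loci may have been counted from the same reads. The sixth gene was CRA1, the storage globulin, at 69.4 CPM in D, against 43.3 in B and lower values in C and A (adjusted p = 0.00186 by edgeR), the only one of the 586 tested list genes to pass. DESeq2 did not call it, with an unadjusted p of 0.201 and no adjusted p. Library D also had the highest sums of seed reserve and root genes, and their part in this difference was not tested. For library D, DESeq2 counted 3883 genes as tested, against the 12855 of edgeR, so the numbers of calls do not cover the same genes. DESeq2 called 7 genes in D, 5 mitochondrial loci and the 2 nuclear genes AT2G07698 and AT2G07671, and without library C 12 were called in edgeR with Tris as the sole term.

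**Figure D5:**
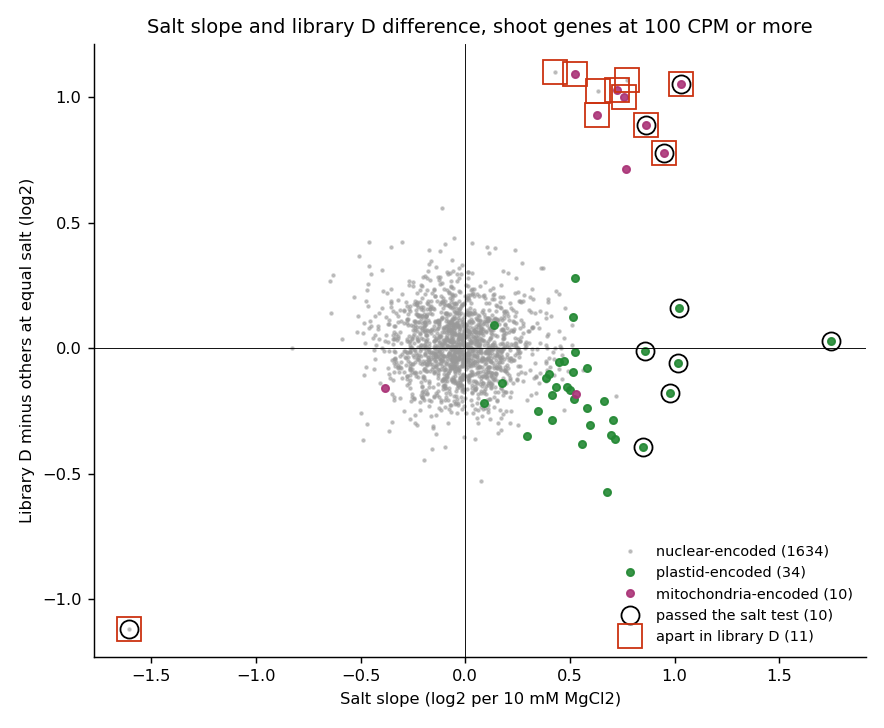
Log2 difference between library D (100 mM Tris) and the other libraries (200 mM) at equal salt against log2 slope per 10 mM MgCl2 for shoot genes at 100 CPM or more, coloured by genome (1634 nuclear, 34 plastid, 10 mitochondrial loci). Circles mark the 10 loci that passed the salt test and squares the 11 that stood apart in D at this level. Plastid loci lie to the right of 0 on the salt axis, and all but 2 of the mitochondrial loci lie high on both axes.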

How the data were processed

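The authors deposited a table of raw footprint counts per gene on coding sequences, with no normalization, per the file headers. Per the submitters' processing notes, the TAIR10 build was used with STAR 2.5.1b and Bowtie2. The sources used here name neither the counting program nor the treatment of reads with several matches. Lysates were treated with RNase and ribosomes isolated on size exclusion columns, per the labels' protocols. Libraries were assigned by title, and only shoot columns entered any value. CPM is the count divided by the library total. Symbols came from a RefSeq table of TAIR10.1, which matched 26719 identifiers and 0 of 210 organelle loci. No coding lengths or sequences were used here.

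Trends were fitted in R 4.3.3 with edgeR 4.0.16 (TMM, factors 0.984 to 1.01; filterByExpr, minimum count 10; quasi-likelihood test, Benjamini-Hochberg at 0.05), with DESeq2 1.42.0 as an alternative, and the fit was tested on simulated counts. Alternatives were other scalings, no filter, other covariates and leaving out each library. Members, lists and families were chosen with earlier results of these data known. Genes named were, by rule, the 20 highest, up to 4 per list, 2 per family, the 5 largest and 5 smallest CVs, the 10 smallest p-values per test, and the markers; further list and family members named here were chosen after their values were seen. 1 marker gene is not reported singly here.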

Additional observations from a re-analysis of the deposited data

Results flagged for a closer look

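In 362 shares and levels, 22 had 1 library far from the other 3. Chance alone would flag about 1 in 20, or 18.1, if the values were normal and independent. Levels and the shares that contain them are not independent, so 18.1 is a rough guide only. A checked gene with counts in 1 library alone is always flagged, as were CRU2, RHD6, SESA2 and WOX5. The library apart was A in 7, B in 1, C in 8 and D in 6. No explanation was tested.

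Library A was apart in the reserve and glycolysis lists. Seed oil breakdown held 0.568% there, against 0.703 to 0.716% in the other libraries, and cytosolic glycolysis 1.16%, against 1.26 to 1.28%. LOS2 had 1532 CPM in A, against 1780 to 1827, AT1G32470 had 351 CPM, against 406, and 58.2% of the glycine decarboxylase H counts, against 64.5 to 65.5%. AT5G02870 had 1075 CPM in A, against 1051 to 1055, and the root peroxidase gene PER64 0.889 CPM, against 6.35 to 7.05.

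Library C was apart in AT2G01021 (316 CPM, against 71.0 to 105), NIA1 (583 CPM, against 731 to 748), HSP81-2 (1799 CPM, against 1419 to 1463), TUA4 (623 CPM, against 565 to 573), ACT7 (808 CPM, against 844 to 846), GUN5 (4381 CPM, against 4218 to 4232) and SHM2 (112 CPM, against 97.2 to 98.7). CRU2 had 0.794 CPM in C and was at 0 elsewhere.

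Library D was apart in AT3G09630 (1157 CPM, against 1043 to 1062), in EIR1 (2.14 CPM, against 1.56 to 1.65) and in the GLU1 share (91.8%, against 92.0%). RHD6 (1.87 CPM), SESA2 (0.534 CPM) and WOX5 (0.267 CPM) had counts in D alone. Library B was apart in the PGK1 share (80.6%, below the other libraries). Values of a few CPM rest on few counts.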

How the results depend on the processing

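The 11 salt calls numbered 1 with DESeq2, 14 with MgCl2 alone on all 4 libraries (8 of them shared with the 11) and 12 to 36 with 1 library left out, where the Tris term was dropped too. Without library C and that term, AT2G01021 (0.52), ATMG00060 (-0.0089), ATMG01360 (-0.17) and ATMG00070 (-0.12) changed the sign of their log2 slope, while dropping the term alone gave -1.63, 1.24, 0.86 and 0.99; leaving out each library in turn gave these -3.70 to 0.52, -0.0089 to 2.64, -0.17 to 1.90 and -0.12 to 2.17. Of the 11 genes, 8, 11, 2 and 11 were called without A, B, C and D. The 20 calls of the Tris term, which rest on library D alone, numbered 7 with DESeq2, 11 with Tris alone, an alternative chosen after seeing the data, as were the fits without a library, which gave 12 to 24; D could not be left out. Scaling and the low-count filter kept both counts within 1.5 times. On nuclear counts alone, photosynthesis genes held 14.8%, and the 10, 100 and 1000 highest genes 7.19%, 26.1% and 61.2%. Of 192 alternative shares by list or genome, 26 moved by at least 1 SD, all of them list shares on nuclear counts alone. List shares thus depended on the total used. Shares by genome and family shares were varied only by leaving out 1 library, which cannot move a mean of 4 values by 1 SD. Mean CPM of named genes moved by at least 1 SD in 5 values, all with TMM scaling, the only alternative that could move them so far. Values per kilobase were not run, for want of coding lengths. No paired analysis was possible because the 4 libraries form 1 group and share no numbers with another group compared here. For nuclear genes of 1 to 10 CPM the median CV was 44.8%, where counting gives 24.8%, and the part of depth in this spread was not tested.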
